A study of Mus musculus with 8 samples.

Results

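Bone marrow-derived macrophages (BMDM) were compared with bone marrow-derived dendritic cells (BMDC) in control cultures, by RNA sequencing of 2 BMDM libraries and 2 BMDC libraries, which are 4 of the 8 libraries of the series. Members were chosen by label: every library of Trpv2fl/fl mice, whose Trpv2 gene is flanked by loxP sites, without Cre. The BMDM had grown for 7 days in M-CSF at 10 ng/mL and the BMDC for 7 days in GM-CSF at 20 ng/mL, both from marrow of C57BL/6 mice. All 4 cultures therefore carry the floxed allele with no recombinase, and they differ in the growth factor. The other 4 libraries are the same cultures from Lyz2-Cre;Trpv2fl/fl mice, in which Cre recombinase is expressed from the Lyz2 locus of myeloid cells; they were used only to repeat the comparison. The series counts 2 mice per genotype and culture. Whether one mouse gave both a BMDM and a BMDC culture, and the ages of the mice, are not given in the sources used here. No sorting step is described, so each library holds the RNA of all cells collected on day 7. In such bulk samples a lower level from fewer cells of a type and from less RNA per cell cannot be told apart. The BMDM and the BMDC counts were deposited in separate tables, so cell type, growth factor, dose and table go together and cannot be told apart. The tables share 13689 genes, and 11252 of them had enough reads to be tested.

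M-CSF acts through the receptor tyrosine kinase encoded by Csf1r and supports the survival and maturation of macrophages from marrow progenitors. GM-CSF acts through a receptor made of a specific alpha chain, Csf2ra, and a shared beta chain, Csf2rb, and signals through JAK2 and STAT5. Cultures in GM-CSF are widely used as a source of dendritic cells, which take up antigen and present it to T cells, and they are known to hold macrophage-like cells and granulocytes as well. Macrophages in M-CSF cultures are known for phagocytosis, clearance of dying cells and lipid handling.

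Library totals were 15964823 and 15864433 counts in the BMDM and 16868675 and 19463457 counts in the BMDC. Levels below are CPM, the counts of a gene relative to the library total after TMM scaling, and differences are log2 fold changes of BMDM over BMDC with a standard error (SE) from edgeR's quasi-likelihood test, with p-values adjusted by the Benjamini-Hochberg method over all genes tested. The threshold was an adjusted p under 0.05. A gene named below with its levels in the control libraries passed it there unless the text says that it did not. Spearman's correlation over genes was 0.991 between the BMDM libraries, 0.981 between the BMDC libraries and 0.89 to 0.907 between the cultures. The BMDC libraries stood further apart than the BMDM libraries: 634 genes differed by more than 2-fold between BMDC control 1 and 2 (5.64%), and 172 between the BMDM libraries (1.53%). A gap of more than 8-fold separated 17 genes in the BMDC and 0 in the BMDM. Of these 17, 12 were higher in BMDC control 2, among them Apoe and the granule gene Ngp, and 5 were higher in BMDC control 1. Levels of both BMDC libraries are therefore given wherever a named gene differs between them. Mitochondrially encoded reads made up 1.48% and 1.71% of the BMDM libraries and 1.04% and 2.04% of the BMDC libraries. Y-linked transcripts were read in all 4 libraries: Uty stood at 12 and 17.3 CPM in the BMDM and 13.6 and 16.1 CPM in the BMDC, and did not pass.

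Trpv2, the calcium-permeable cation channel whose gene is floxed, was expressed in both cultures as the labels imply, at 277 and 278 CPM in the BMDM and 181 and 241 CPM in the BMDC. Its difference of 0.39 (SE 0.19) did not pass the threshold (adjusted p = 0.14). Lyz2, which encodes lysozyme M and is the locus used to drive Cre in the other libraries, was among the 3 genes with most reads in every one of the 4 libraries. It stood at 64465 and 55173 CPM in the BMDM and 17451 and 19817 CPM in the BMDC, a difference of 1.68 (SE 0.29, adjusted p = 0.0073). Without BMDM control 1 its log2 fold change was 1.56. Reads of Lyz2 and its near copy Lyz1 can be split between them by the counting, so both are uncertain.

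A large share of the transcriptome differed between the cultures. Of the 11252 genes, 4311 (38.3%) passed the threshold: 1995 (17.7%) were higher and 2316 (20.6%) lower in the BMDM. Among them 1024 higher and 1314 lower genes differed by at least 2-fold, and 182 and 282 by a log2 of at least 3. The groups did not overlap for 75.0% of all genes tested, a share against which single non-overlapping genes have to be read. The counts depended on the libraries in the fit, but a fit that leaves out a library leaves its group with a single library. The spread then comes from the other group alone. Without a BMDM library, that is the spread of the BMDC pair, which stood further apart. In the counts given below for such fits, the library left out and this change of spread cannot be told apart. With library totals in place of TMM scaling, the split was 1339 higher (11.9%) and 3002 lower (26.7%), and the median difference of all genes moved by 0.2 to -0.206, so small differences depend on the scaling.

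The direction of a difference went with the listed length of the gene. In the length quintile with the shortest genes (243 to 2566 bases), 641 were higher and 198 lower in the BMDM, and the median log2 fold change was 0.354. In the quintile with the longest (7672 bases and more), 202 were higher and 859 lower, with a median of -0.438. Whether this comes from library preparation or from the cells was not tested. With the length trend removed, 1790 genes (15.9%) were higher and 1872 (16.6%) lower, and 1462 of the 1995 higher and 1665 of the 2316 lower genes also passed in this fit. 

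**Figure D1:**
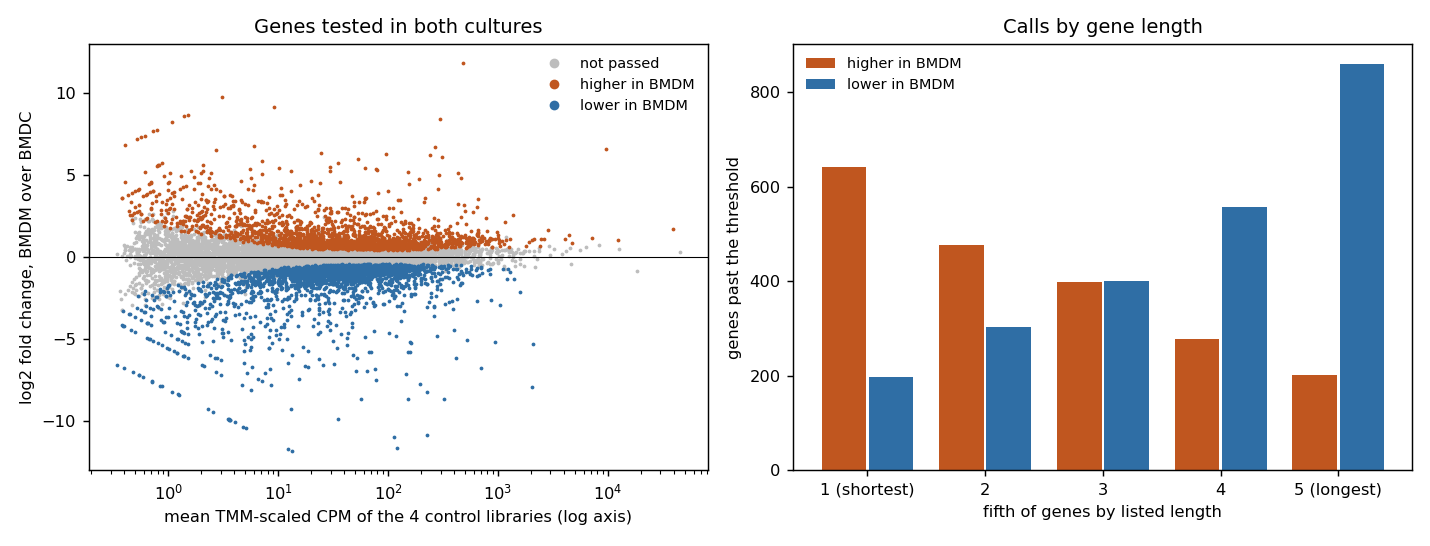
Left, log2 fold change of BMDM over BMDC against the mean TMM-scaled CPM of the 4 control libraries, 1 point per tested gene, with genes past the threshold in colour. Right, number of genes past the threshold in each quintile of listed length; in the longest quintile 202 genes are higher and 859 lower.

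The genes used to mark the comparison separated the cultures without overlap, as did 75.0% of all genes tested. Slc13a3, which encodes a sodium-coupled dicarboxylate transporter of the plasma membrane, had 1073 and 841 CPM in the BMDM and 0.325 and 0.195 CPM in the BMDC. Its log2 fold change of 11.82 (SE 0.35, adjusted p = 1.5e-04) was the largest increase of any tested gene with a mean of at least 5 CPM over the 4 libraries. Only 6 and 4 reads were counted for it in the BMDC libraries. Adgre1, which encodes the macrophage surface antigen F4/80, was high in all 4 libraries, at 4339.6 and 4372 CPM in the BMDM and 1688 and 1053 CPM in the BMDC. It was 3.18-fold higher in the BMDM (log2 1.67, SE 0.28, adjusted p = 0.0063). C1qa, a chain of the first complement component, had 171 and 133 CPM in the BMDM, against 2.76 and 17.4 CPM in the BMDC. Its difference was 3.90 (SE 0.72, adjusted p = 0.0085), with BMDC control 2 well above BMDC control 1. Without BMDM control 1, the log2 fold changes were 1.66 for Adgre1, 3.71 for C1qa and 11.63 for Slc13a3.

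Mmp8, the neutrophil collagenase, had 49.3 and 48.7 CPM in the BMDM and 1468 and 2172 CPM in the BMDC (log2 -5.22, SE 0.28, adjusted p = 2.1e-04). Arg1, the arginase that turns arginine into ornithine and urea, had 0 and 0.455 CPM in the BMDM, against 123 and 785 CPM in the BMDC (log2 -10.87, SE 1.35, adjusted p = 0.0025). The BMDC libraries differ several-fold from each other for Arg1, but both lie far above the BMDM. Fn1, which encodes the matrix protein fibronectin, had 3 reads over both BMDM libraries and 8943 over both BMDC libraries. The ratio of its levels was 2271.2 in favour of the BMDC, with a 95% counting interval of 777 to 11015.4, and its adjusted p was 4.1e-04.

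**Figure D2:**
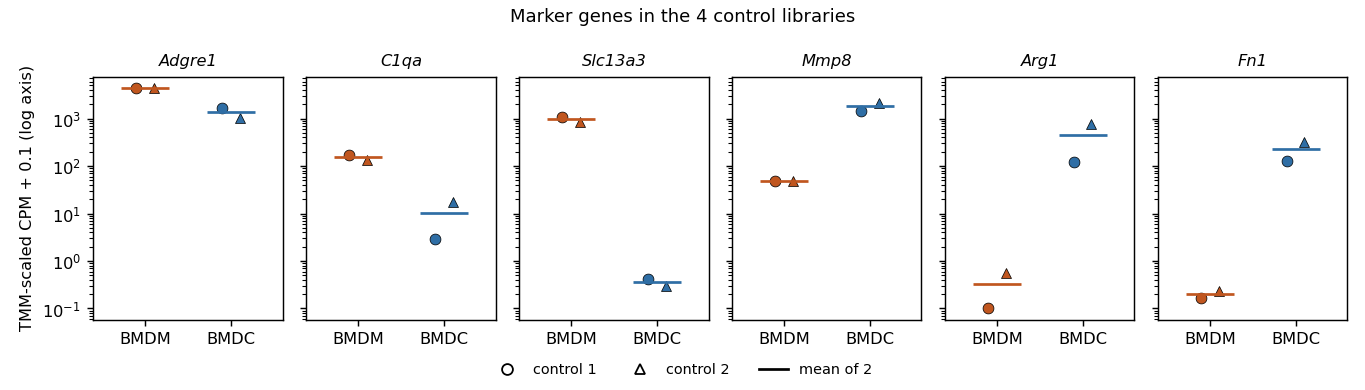
Level of the 6 marker genes in each control library, as TMM-scaled CPM + 0.1 on a log axis; circles are control 1, triangles control 2 and lines the mean of both. The groups do not overlap for any of the 6, as for 75.0% of all genes tested, and Adgre1 is high in all 4 libraries.

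The promoters of the markers Slc13a3 and Mmp8 and of C1qb, C1qc, Tmem176a and Cish are shown as examples. They were chosen by hand, and those of the other markers are not shown. Each runs from 250 bases before to 50 bases after the gene start in RefSeq (build GRCm38.p6), 5′ to 3′ on the strand of the gene, and 9095 of the 11252 tested genes matched an entry by symbol. Capitals mark matches, on either strand, to the letters GAGGAA (a core of PU.1 sites, the factor that sets up the myeloid lineages), TGANTCA (AP-1), TTCNNNGAA (STAT dimers) and CACGTG (an E-box), and no marked match overlaps another.
Slc13a3, chr2:165473148-165473447, minus strand: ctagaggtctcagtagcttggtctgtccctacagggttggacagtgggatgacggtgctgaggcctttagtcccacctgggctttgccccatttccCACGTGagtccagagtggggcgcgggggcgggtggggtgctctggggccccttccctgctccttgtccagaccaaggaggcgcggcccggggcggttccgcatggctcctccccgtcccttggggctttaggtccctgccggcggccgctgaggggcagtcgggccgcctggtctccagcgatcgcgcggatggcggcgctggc
C1qb, chr4:136886151-136886450, minus strand: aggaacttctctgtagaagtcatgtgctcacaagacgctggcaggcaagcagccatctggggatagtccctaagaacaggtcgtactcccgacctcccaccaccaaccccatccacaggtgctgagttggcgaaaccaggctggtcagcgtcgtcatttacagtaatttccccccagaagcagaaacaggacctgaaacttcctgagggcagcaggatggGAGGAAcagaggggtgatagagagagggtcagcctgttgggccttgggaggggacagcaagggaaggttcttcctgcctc
C1qc, chr4:136892865-136893164, minus strand: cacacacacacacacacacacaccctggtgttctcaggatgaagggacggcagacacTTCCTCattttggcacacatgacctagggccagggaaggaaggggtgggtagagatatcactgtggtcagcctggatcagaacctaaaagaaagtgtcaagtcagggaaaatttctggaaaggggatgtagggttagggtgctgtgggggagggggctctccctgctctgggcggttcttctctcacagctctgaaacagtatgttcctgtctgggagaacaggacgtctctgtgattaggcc
Tmem176a, chr6:48841233-48841532, plus strand: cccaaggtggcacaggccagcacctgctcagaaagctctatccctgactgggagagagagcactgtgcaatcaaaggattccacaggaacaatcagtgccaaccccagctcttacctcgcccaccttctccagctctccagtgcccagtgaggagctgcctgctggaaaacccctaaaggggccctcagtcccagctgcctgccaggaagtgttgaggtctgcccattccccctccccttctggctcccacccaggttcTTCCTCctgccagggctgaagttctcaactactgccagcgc
Mmp8, chr9:7558179-7558478, plus strand: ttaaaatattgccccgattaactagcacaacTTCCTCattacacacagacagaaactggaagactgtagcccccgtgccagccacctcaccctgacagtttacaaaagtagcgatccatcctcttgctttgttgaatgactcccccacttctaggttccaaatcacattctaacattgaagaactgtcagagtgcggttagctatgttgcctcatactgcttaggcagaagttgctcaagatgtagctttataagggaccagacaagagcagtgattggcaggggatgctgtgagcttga
Cish, chr9:107296409-107296708, plus strand: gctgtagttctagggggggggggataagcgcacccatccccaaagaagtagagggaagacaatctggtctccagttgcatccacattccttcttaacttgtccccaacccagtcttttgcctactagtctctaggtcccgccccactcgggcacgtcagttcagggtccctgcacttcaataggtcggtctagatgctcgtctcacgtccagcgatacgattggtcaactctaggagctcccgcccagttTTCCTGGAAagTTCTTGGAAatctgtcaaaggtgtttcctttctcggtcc

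The window of Slc13a3 holds a single marked match, an E-box. Those of C1qb, C1qc, Tmem176a and Mmp8 hold a PU.1 match each, and that of Cish holds 2 STAT matches side by side and no other. Another listed window of Tmem176a, not shown, holds PU.1 matches as well. Such short letters are common. A PU.1 match was present in a promoter of 33.6% of genes higher in the BMDM, 32.8% of genes lower and 30.6% of all genes tested. Among genes that differed by a log2 of at least 3, it was present in 41.9% of the higher and 36.7% of the lower genes. An AP-1 match was present in 10.8% of these strongly higher genes and 16.2% of the strongly lower genes, against 6.22% of all genes tested. STAT letters were present in 6.08% and 7.62%, against 8.27% of all genes tested, and the E-box in 6.08% and 8.1%, against 12%. A gene with several listed promoters was counted if any of them held the match. These shares are descriptions without a test.

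The labels were checked against markers of both cell types. Of the 23 tested macrophage markers, 12 were higher and 1 lower in the BMDM, beside 17.7% and 20.6% of all genes tested. Their median log2 fold change was 1.00, where the median of all genes was near 0. Besides Adgre1 and Lyz2, the higher genes included Siglec1, a sialic acid-binding adhesion receptor, at 105 and 111 CPM in the BMDM and 36.4 and 43.5 CPM in the BMDC. They also included Selenop, a secreted selenium carrier, at 810.2 and 951 CPM in the BMDM and 84.4 and 171 CPM in the BMDC. The exception was Itgam, the CD11b integrin chain shared by many myeloid cells, at 119 and 123 CPM in the BMDM and 467 and 502 CPM in the BMDC (adjusted p = 6.4e-04). Mrc1, the mannose receptor, had 44.4 and 62.2 CPM in the BMDM and 16.2 and 93.9 CPM in the BMDC, with the BMDC libraries on either side of the BMDM ones. It did not pass, but without BMDC control 2 its log2 fold change was 1.71 and did. With BMDM control 1 left out, 3 of the 12 higher genes passed.

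Dendritic cell markers split both ways: of 17 tested, 4 were lower and 3 higher in the BMDM, where 20.6% of all genes tested were lower and 17.7% higher. The median was -0.43, and 0.13 without BMDC control 2. Lower in the BMDM was Cd24a, a surface glycoprotein, at 6.71 and 3.77 CPM, against 366 and 227 CPM in the BMDC. Irf4, a factor of conventional dendritic cells, had 0.28 and 0.13 CPM in the BMDM and 8.61 and 13 CPM in the BMDC. Clec9a, a receptor for dead cells, and the regulator Id2 were the other lower genes, at log2 differences of -3.63 and -1.97. Higher in the BMDM was Batf3, a factor of cross-presenting dendritic cells, at 9.09 and 5.01 CPM, against 1.3 and 2.25 CPM in the BMDC, and so were Irf8 and Xcr1. Of these 3 higher genes, 0 passed without BMDM control 1 in edgeR's test, and 1 without BMDM control 2 or without BMDC control 1, while 3 of the 4 lower genes passed without BMDM control 1. Several genes that define dendritic cells were near 0 in the BMDC. Flt3, the receptor of Flt3 ligand, is listed in the BMDC table only, with 7 and 0 reads, and Cd209a likewise with 0 and 9 reads. Zbtb46, a factor of the conventional dendritic lineage, stood at 0.839 and 0.0651 CPM in the BMDM and 0.487 and 0.733 CPM in the BMDC, and did not pass. Itgax, the CD11c chain, was read in all libraries, at 34.3 and 57.1 CPM in the BMDM and 62.4 and 72 CPM in the BMDC, and did not pass (adjusted p = 0.12). The label of the BMDC is used below as the name of the GM-CSF culture.

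Receptors for the growth factors differed between the cultures, and not all in one direction. Csf1r, the M-CSF receptor, had 3539 and 3675 CPM in the BMDM and 2037 and 1327 CPM in the BMDC, and was 2.15-fold higher in the BMDM (SE of log2 0.26, adjusted p = 0.019). Csf2ra, the GM-CSF receptor alpha chain, was also higher in the BMDM, at 494 and 456 CPM, against 281 and 246 CPM in the BMDC (log2 0.85, SE 0.17, adjusted p = 0.01). The shared beta chain Csf2rb went the other way, at 232 and 249 CPM in the BMDM and 1512 and 1447 CPM in the BMDC, and its near copy Csf2rb2 had 104 and 139.8 CPM in the BMDM and 786 and 681 CPM in the BMDC. Reads of this pair can be split between the copies, and both differed alike, by -2.62 and -2.59. Csf1, which encodes M-CSF itself, had 2.38 and 2.54 CPM in the BMDM and 129 and 148 CPM in the BMDC (log2 -5.81, SE 0.19, adjusted p = 1.6e-04). Kit, the stem cell factor receptor of progenitors and mast cells, had 1.26 and 0.716 CPM in the BMDM and 88.3 and 165 CPM in the BMDC. Il3ra rose to 52.3 and 43.6 CPM in the BMDM, against 18 and 20.1 CPM in the BMDC. Csf3, which encodes G-CSF, fell to 3.98 and 1.63 CPM in the BMDM, against 31.4 and 13.3 CPM in the BMDC. In the fit without BMDM control 1, the log2 fold changes were 1.12 for Csf1r, 0.78 for Csf2ra and -2.58 for Csf2rb. In all, 3 of the 10 tested genes of this list were higher and 6 lower in the BMDM, beside 17.7% and 20.6% of all genes tested. The median of the list was -1.67.

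Genes known as feedback inhibitors and targets of JAK-STAT5 signalling were mostly lower in the BMDM, with 10 of 17 lower and 2 higher. Beside them, 20.6% of all genes tested were lower and 17.7% higher, and the median of the list was -0.87. Cish, whose promoter is printed above, had 1.12 and 0.911 CPM in the BMDM and 16.8 and 23.2 CPM in the BMDC (log2 -4.30, SE 0.31, adjusted p = 4.4e-04). Socs2 had 0.28 and 0.0651 CPM in the BMDM and 8.66 and 10.5 CPM in the BMDC. Socs1 had 5.24 and 3.9 CPM in the BMDM and 42.1 and 50.4 CPM in the BMDC. These 3 encode SH2-domain proteins that limit cytokine receptor signalling. Jak2, the kinase bound to the beta chain, had 54 and 40.3 CPM in the BMDM and 317 and 148 CPM in the BMDC. The exceptions were Pim2, a survival kinase, at 102 and 73.3 CPM in the BMDM and 12.8 and 7.81 CPM in the BMDC. Bcl6, a repressor, had 95.7 and 77.7 CPM in the BMDM and 19.8 and 28.6 CPM in the BMDC. The groups did not overlap for any of these 6 genes, which holds for every gene past the threshold and for 75.0% of all genes tested. Il2ra and Bcl2l1 did not pass, at differences of -0.23 and -0.10. After BMDM control 1 was left out, 7 of the 10 lower and both higher genes still passed.

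**Figure D3:**
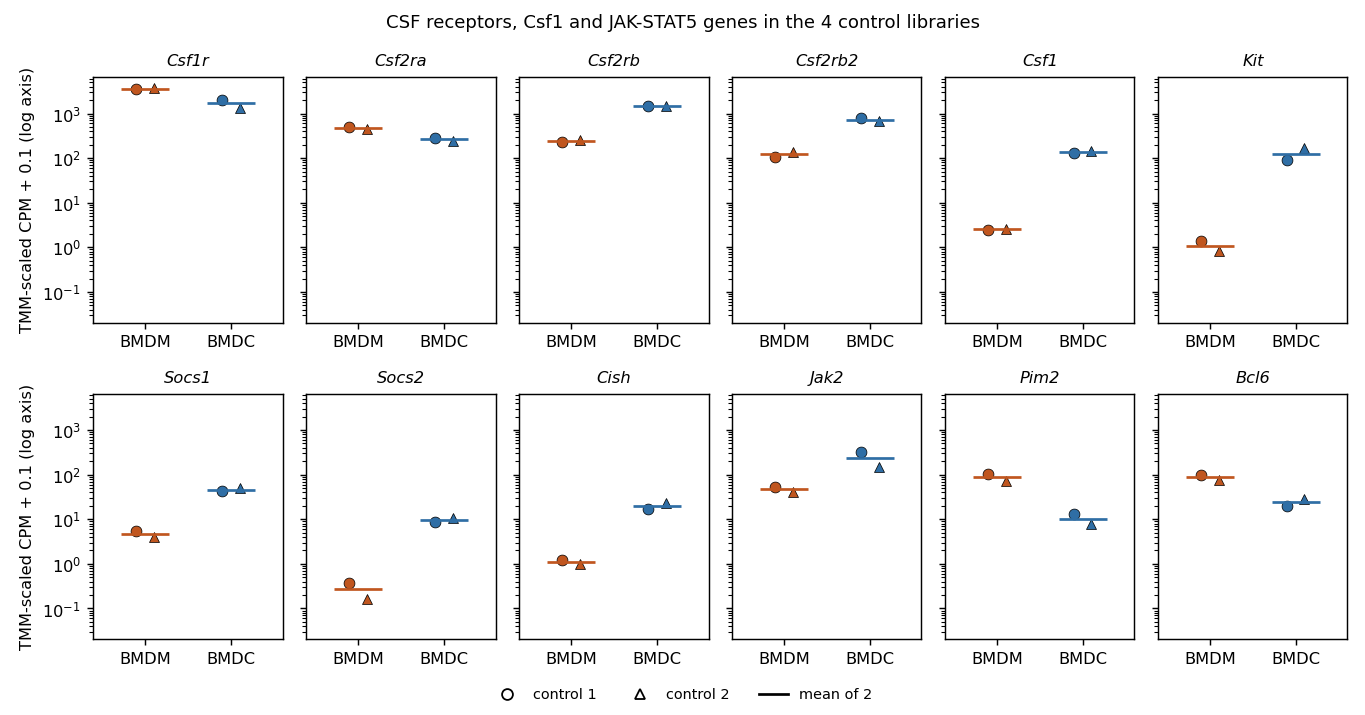
Level of growth factor receptors, Csf1, Kit and JAK-STAT5 genes in each control library, as TMM-scaled CPM + 0.1 on a log axis; circles are control 1, triangles control 2 and lines the mean of both. Csf1r and Csf2ra are higher in the BMDM, Csf2rb, Csf2rb2, Csf1, Kit, Socs1, Socs2, Cish and Jak2 lower, and Pim2 and Bcl6 higher.

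Of 49 tested myeloid transcription factors, 24 were lower and 9 higher in the BMDM, beside 20.6% and 17.7% of all genes tested. Their median was -0.59. The smallest p-values belonged to Bhlhe40, a repressor that GM-CSF is known to induce, at 5.59 and 6.83 CPM in the BMDM and 143 and 141 CPM in the BMDC (log2 -4.51, adjusted p = 1.6e-04), and to Nr1h3, the oxysterol receptor LXR-alpha, at 128 and 92.2 CPM in the BMDM and 10.0 and 11.1 CPM in the BMDC (log2 3.38, adjusted p = 3.4e-04). Cebpe, a factor of granulocyte maturation, had 0.839 and 0.976 CPM in the BMDM and 6.98 and 8.4 CPM in the BMDC. Runx1 had 44.1 and 42.8 CPM in the BMDM and 104 and 95.9 CPM in the BMDC. Spi1, which encodes PU.1, was higher in the BMDM, at 1103 and 823 CPM, against 314 and 399.6 CPM in the BMDC. Nfkb1 and Etv3 did not pass, at differences of 0.03 and 0.02. Without BMDM control 1, 8 of the 24 lower and 3 of the 9 higher factors passed, and without BMDM control 2, 14 and 5.

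The complement list split by protein. All 3 C1q chains were higher in the BMDM: C1qb had 955 and 738 CPM in the BMDM and 3.19 and 45 CPM in the BMDC. C1qc had 614 and 511 CPM in the BMDM and 2.38 and 32.7 CPM in the BMDC. In each chain BMDC control 2 stood several-fold above BMDC control 1 and still far below the BMDM. Cd55, a membrane inhibitor of the C3 convertase, was higher in the BMDM, at 44.5 and 32.6 CPM, against 1.19 and 1.91 CPM in the BMDC (log2 4.62, adjusted p = 3.6e-04), as was Cd59a, an inhibitor of the membrane attack complex. C3, the central component, was lower in the BMDM, at 599 and 563 CPM, against 3361 and 1797 CPM in the BMDC (log2 -2.15, adjusted p = 0.0045). In all, 8 of 20 tested genes were higher and 5 lower, beside 17.7% and 20.6% of all genes tested. The median of 0.37 became -0.03 with the length trend removed and -0.21 without BMDC control 1. With BMDM control 1 left out, 1 gene passed in each direction, and 2 of the 5 lower ones passed with BMDM control 2 left out.

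Fc receptors, which bind antibody, also divided. Fcgr4, an activating receptor, had 174 and 129 CPM in the BMDM and 18.2 and 35.5 CPM in the BMDC (log2 2.49). Fcgrt, the neonatal receptor that recycles IgG, had 61.4 and 59.3 CPM in the BMDM and 8.07 and 10.3 CPM in the BMDC (log2 2.72). Fcgr2b, the inhibitory receptor, went the other way, at 103 and 78.7 CPM in the BMDM and 568 and 679 CPM in the BMDC (log2 -2.78), and so did Fcgr3 (log2 -1.01). The high-affinity receptor Fcgr1 and the shared signalling chain Fcer1g did not pass. Fcrls, an Fc receptor-like gene of macrophages and microglia in the mouse, had 666 and 524 CPM in the BMDM and 0.217 and 3.22 CPM in the BMDC (log2 8.40, adjusted p = 0.0012). Fcrl5 had 546 reads over both BMDM libraries and 1 over both BMDC libraries. In all, 5 of 9 were higher and 2 lower, beside 17.7% and 20.6% of all genes tested. The median was 0.96, or 0.71 without BMDM control 1.

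Receptors and bridging proteins for dying cells and modified lipids were more often higher in the BMDM, with 12 of 25 higher and 5 lower. Among all genes tested, 17.7% were higher and 20.6% lower, and the median of the list was 0.78. Gas6, the ligand that bridges phosphatidylserine to the TAM receptors, had 266 and 324 CPM in the BMDM and 5.14 and 11.2 CPM in the BMDC (log2 5.17, SE 0.38, adjusted p = 4.8e-04). Mfge8, another bridging protein, had 1012 and 1043 CPM in the BMDM and 187 and 119 CPM in the BMDC. Pros1 had 29.4 and 33.9 CPM in the BMDM and 5.74 and 9.57 CPM in the BMDC. The scavenger receptors Cd36 (3.51 on the log2 scale), Marco (3.15) and Colec12 (2.77) were also higher in the BMDM. Mertk, a TAM receptor, had 30.8 and 40.5 CPM in the BMDM and 10.5 and 30.9 CPM in the BMDC and did not pass. Olr1, a receptor for oxidised low-density lipoprotein, was lower in the BMDM, at 0.839 and 0.586 CPM, against 51.5 and 14.4 CPM in the BMDC. In the fit without BMDM control 1, 7 of the 12 higher and 1 of the 5 lower genes passed.

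Of 19 tested C-type lectin receptors, 6 were higher and 5 lower in the BMDM, beside 17.7% and 20.6% of all genes tested. Clec12a, an inhibitory receptor for uric acid crystals, had 416 and 356 CPM in the BMDM and 34.8 and 40.6 CPM in the BMDC (log2 3.36), and Clec4a1 and Clec4a2 were higher too. Clec4n, which encodes dectin-2, a receptor for fungal mannans, had 253 and 229 CPM in the BMDM and 1549 and 2158 CPM in the BMDC (log2 -2.94). Ly75, the endocytic receptor DEC-205, had 23.4 and 30.9 CPM in the BMDM and 286 and 142 CPM in the BMDC (log2 -2.98). Clec4d did not pass, at 0.09. Of 32 paired inhibitory and activating receptors, 9 were lower and 6 higher, beside 20.6% and 17.7% of all genes tested. Cd300lf had 2.87 and 1.24 CPM in the BMDM and 329 and 249 CPM in the BMDC. Cd33 had 41 and 38.3 CPM in the BMDM and 629 and 339.7 CPM in the BMDC. Trem1, which amplifies inflammatory responses of neutrophils and monocytes, had 0 reads in the BMDM and 282 over both BMDC libraries, so its level was at least 71.6-fold lower in the BMDM (3 counts over the group as floor). The medians of both lists, -0.05 and -0.18, changed sign without BMDC control 2, to 0.76 and 0.16, and that of the paired receptors was 0.13 without BMDM control 2. Without BMDM control 1, 3 of the 6 higher and 2 of the 5 lower lectins and 2 of the 6 higher paired receptors passed.

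Lipid handling was among the groups with most genes higher in the BMDM. Of 32 tested, 15 were higher and 8 lower, beside 17.7% and 20.6% of all genes tested, with a median of 0.43. Apoe, which carries cholesterol out of macrophages, was among the most abundant transcripts of the BMDM, at 20479.6 and 17321 CPM, against 35 and 359.5 CPM in the BMDC (log2 6.58, SE 1.12, adjusted p = 0.0065). Pltp, the phospholipid transfer protein, had 488 and 465 CPM in the BMDM and 4.33 and 8.25 CPM in the BMDC (log2 6.24, SE 0.34, adjusted p = 2.2e-04). Abcg1, a cholesterol exporter, was 2.36-fold higher and Fasn, the fatty acid synthase, 4.02-fold higher. Dgat2, which makes triglycerides for storage, was lower in the BMDM, at 0.21 and 0.455 CPM, against 10.3 and 10.3 CPM in the BMDC. Apoe, Pltp and Abcg1 are known targets of LXR, as is Abca1, which went the other way at 116 and 126 CPM in the BMDM and 398 and 225 CPM in the BMDC. After BMDM control 1 was left out, 7 of the 15 higher and 1 of the 8 lower genes passed, and 7 of the 15 after BMDM control 2 was. Few cholesterol synthesis genes passed: 4 of 24 were higher and 2 lower, and Hmgcs1 did not pass, at a difference of 0.02. None of these 6 passed without BMDM control 1.

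Tmem176a and Tmem176b are neighbouring genes of membrane proteins known from myeloid cells. Tmem176a had 206 and 174 CPM in the BMDM and 1.79 and 3.08 CPM in the BMDC, and Tmem176b had 593 and 462 CPM in the BMDM and 4.28 and 5.57 CPM in the BMDC. Their differences were 6.28 (SE 0.29) and 6.74 (SE 0.26), both at an adjusted p of 1.6e-04. They lie on opposite strands, and the first listed promoter windows of both share 155 bases. Other genes at the upper end were Cd72, an inhibitory receptor best known from B cells, at 629 and 597 CPM in the BMDM and 14.5 and 3.37 CPM in the BMDC, and Slamf9, at 126 and 85.6 CPM in the BMDM and 1.52 and 1.86 CPM in the BMDC. The sulfotransferase gene Ust, Fgd2, Fgf11, Cbr2, the adrenergic receptor gene Adra1a and Lyz1 completed the 15 largest increases, with differences of 5.42 to 6.76.

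Chemokines were more often lower than higher in the BMDM, where 20.6% of all genes tested were lower and 17.7% higher. Among CC chemokines, 5 of 12 tested were lower and 1 higher in the BMDM, with a median of -0.71. Without BMDC control 1, 5 were lower and 3 higher, and the median was -0.06. Ccl6 had 104 and 101 CPM in the BMDM and 2276 and 5851 CPM in the BMDC (log2 -5.31). Ccl2, which attracts monocytes, had 12.2 and 4.75 CPM in the BMDM and 228 and 392 CPM in the BMDC (log2 -5.20). Ccl22, a chemokine of mature dendritic cells, had 0.559 and 0.26 CPM in the BMDM and 44.6 and 8.45 CPM in the BMDC. Ccl3 did not pass, at -0.01, and Ccl8 was the one that was higher in the BMDM. Among CXC, C and CX3C chemokines, 6 of 10 were lower and 2 higher, with a median of -2.78. Cxcl3, which attracts neutrophils, had 17.4 and 7.81 CPM in the BMDM and 1549 and 1249 CPM in the BMDC (log2 -6.80). Cxcl5, of the same group, had 2 reads over the BMDM and 9681 over the BMDC, a ratio of 3688.0 in favour of the BMDC (95% counting interval 1020.7 to 30457.0). Without BMDM control 1, 3 of the 5 lower CC genes and 5 of the 6 lower CXC genes passed, and 0 of the 2 higher CXC genes.

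Of 11 tested chemokine receptors, 4 were lower and 3 higher in the BMDM, beside 20.6% and 17.7% of all genes tested. None of the 3 higher ones passed in edgeR's test without BMDM control 1 or without BMDM control 2, and 2 of the 4 lower ones passed without BMDM control 1. Ccr1, a receptor for several CC chemokines, had 7.41 and 8.85 CPM in the BMDM and 256 and 369.8 CPM in the BMDC (log2 -5.26, adjusted p = 1.6e-04). Cxcr4, the receptor that holds cells in the marrow, had 30.3 and 50.5 CPM in the BMDM and 224 and 121 CPM in the BMDC. Ccr7, by which mature dendritic cells reach lymph nodes, was at 0.699 and 0.52 CPM in the BMDM and 2.49 and 1.42 CPM in the BMDC and did not pass.

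Interleukin-1 family genes were more often lower than higher in the BMDM: 12 of 24 lower, 2 higher, median -0.56. Il1a had 9.3 and 6.38 CPM in the BMDM and 289.5 and 103 CPM in the BMDC (log2 -4.65). Il1b had 41.6 and 15.9 CPM in the BMDM and 271 and 188 CPM in the BMDC, and the receptor chain Il1r1 had 2.59 and 4.36 CPM in the BMDM and 66.4 and 40.3 CPM in the BMDC. Il1rl2, the interleukin-36 receptor, had 3.15 and 5.01 CPM in the BMDM and 150.5 and 88.9 CPM in the BMDC. Nlrp3, the inflammasome sensor, was lower in the BMDM at a log2 difference of -1.58, while Casp1, the protease it activates, was higher at 1.25. With BMDM control 1 left out, 8 of the 12 lower and 1 of the 2 higher genes passed, and 7 of the 12 with BMDM control 2 left out. Among the other cytokines, 9 of 28 were lower and 5 higher, beside 20.6% and 17.7% of all genes tested, with a median of 0.10. Il12a, the p35 chain of interleukin-12, had 1.89 and 0.976 CPM in the BMDM and 88.9 and 45.1 CPM in the BMDC (log2 -5.55). Il10, an anti-inflammatory cytokine, had 12.6 and 9.11 CPM in the BMDM and 0.271 and 0.244 CPM in the BMDC (log2 5.36, adjusted p = 5.6e-04). Igf1, a growth factor of tissue macrophages, had 537 and 531 CPM in the BMDM and 20.5 and 40.9 CPM in the BMDC (log2 4.12, adjusted p = 7.7e-04). Inhba, which encodes a chain of activin A, had 0.839 and 0.651 CPM in the BMDM and 403 and 199 CPM in the BMDC (log2 -8.65), and Fst, the activin-binding follistatin, had 2 reads over the BMDM and 664 over the BMDC.

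Matrix, protease and clotting genes formed one of the most uneven groups, with a median of -2.40. Of 38 tested, 23 were lower and 3 higher in the BMDM, beside 20.6% and 17.7% of all genes tested. Thbs1, a matrix glycoprotein that activates latent TGF-beta, had 18 and 14.8 CPM in the BMDM and 3214 and 4885 CPM in the BMDC (log2 -7.95, SE 0.36, adjusted p = 1.6e-04). Serpinb2, an inhibitor of plasminogen activators, had 1.54 and 1.63 CPM in the BMDM and 494 and 784 CPM in the BMDC (log2 -8.65, SE 0.35). Mmp9, the gelatinase, had 34.9 and 33.4 CPM in the BMDM and 858 and 668 CPM in the BMDC. F7, coagulation factor VII, had 4.96 and 5.92 CPM in the BMDM and 80.0 and 95.5 CPM in the BMDC. In each of these 4 genes the gap between the cultures was many times the gap within a culture. They were named for the smallest p of the list, which selects for such gaps. Thbd, Mmp3 and Mmp27 did not pass, at differences of -0.01, 0.11 and 0.10. In the fit without BMDM control 1, 14 of the 23 lower genes passed.

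Arginine genes went with Arg1. Of 18 tested genes of arginine metabolism and alternative activation, 10 were lower and 2 higher in the BMDM, with a median of -1.38. The arginine transporter Slc7a2 had 1.68 and 0.976 CPM in the BMDM, against 236 and 64.1 CPM in the BMDC, and its relative Slc7a1 was lower at a log2 difference of -2.49. Arg2, the mitochondrial arginase, had 2.87 and 2.41 CPM in the BMDM and 40.2 and 21.1 CPM in the BMDC. Ass1, which rebuilds arginine from citrulline, had 63.6 and 50.5 CPM in the BMDM and 269 and 268 CPM in the BMDC. Chil3, a chitinase-like marker of alternative activation, had 2 reads over the BMDM and 2824 over the BMDC. Prostaglandin and leukotriene genes had 7 of 22 lower and 3 higher, and 4 of the 7 passed without BMDM control 1. Over all genes tested, 20.6% were lower and 17.7% higher. Ptgs1, the constitutive cyclooxygenase, had 1.47 and 2.47 CPM in the BMDM and 79 and 85.1 CPM in the BMDC (log2 -5.37). Alox5, which starts leukotriene synthesis, had 5.66 and 7.35 CPM in the BMDM and 61.6 and 72.4 CPM in the BMDC (log2 -3.36). Hpgds, the haematopoietic prostaglandin D synthase, went the other way, at 126 and 143 CPM in the BMDM and 42.3 and 45.3 CPM in the BMDC. The remaining extremes on the lower side were Cyp1b1, Kcnn3 and Ccn3, with 0 reads in the BMDM and 1009, 971 and 417 over both BMDC libraries, and Cck and Zfp507, with 1 read each against 1013 and 435. Their levels in the BMDM were at least 256-fold, 247-fold and 106-fold lower for the first 3.

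**Figure D4:**
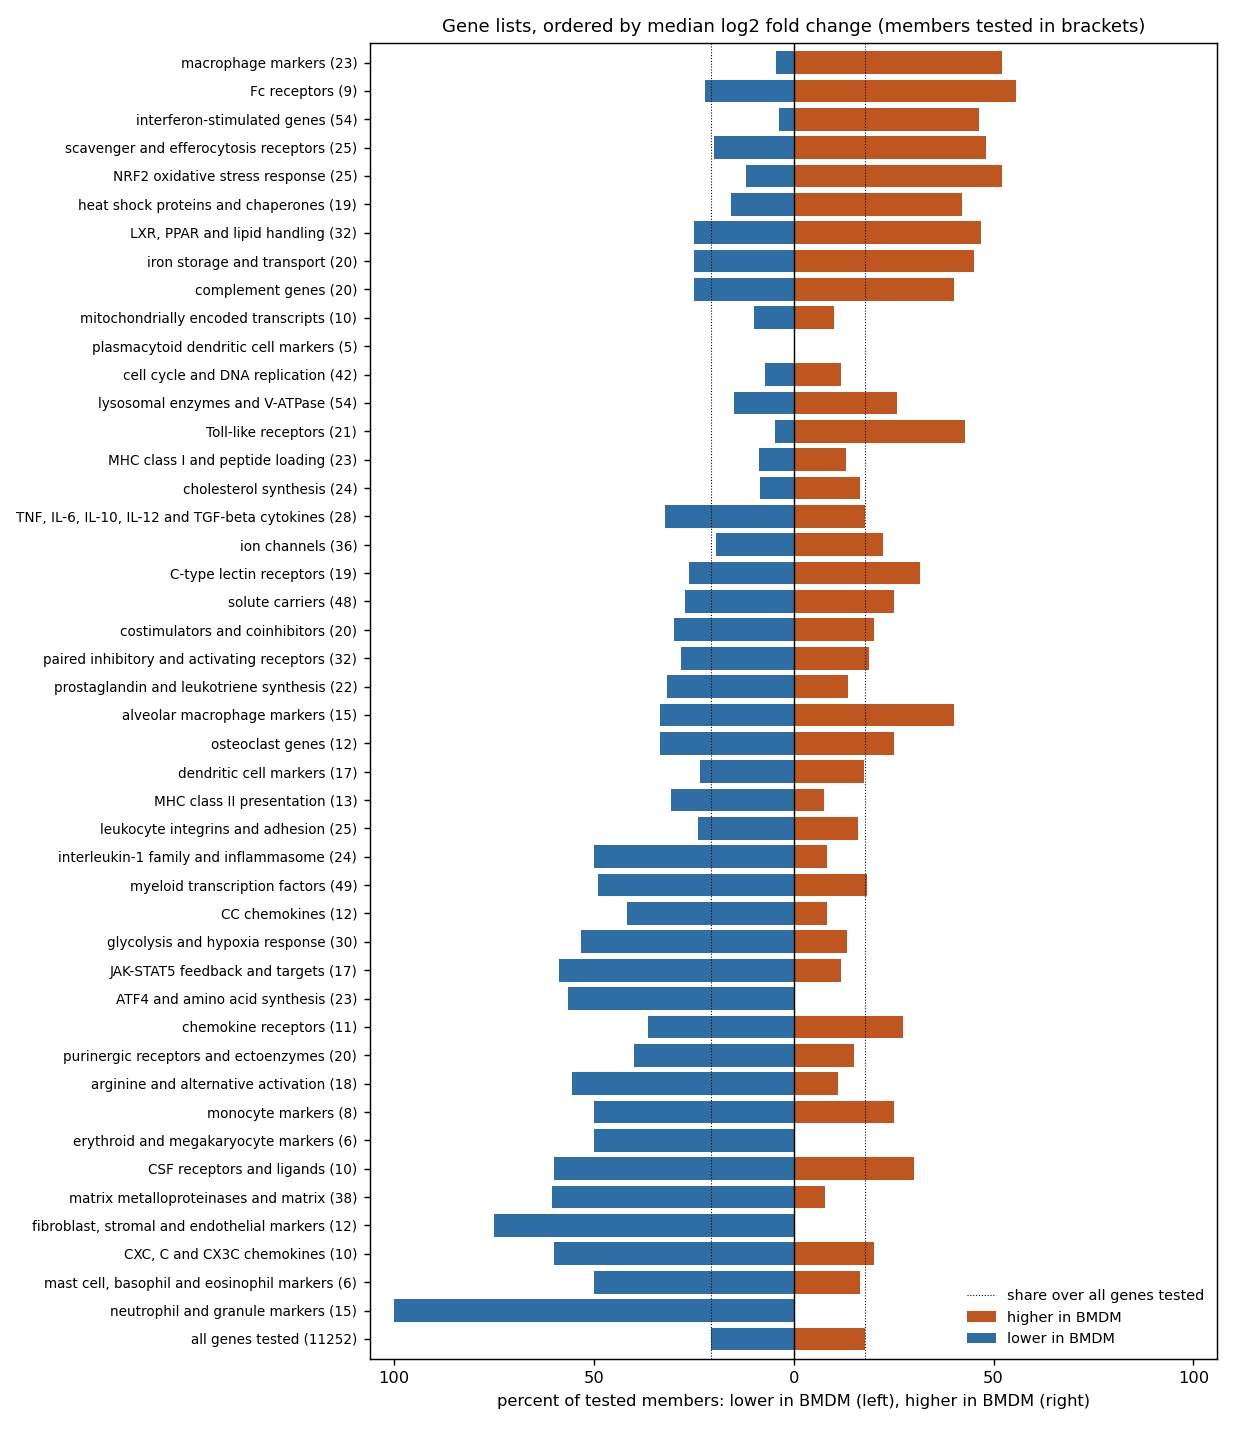
Share of tested members of each gene list with at least 5 tested members that were lower (left) or higher (right) in the BMDM, ordered by the median log2 fold change, with all genes tested in the lowest row. Dotted lines mark 20.6% lower and 17.7% higher over all genes. The list of neutrophil and granule markers is entirely on the lower side.

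Markers of other blood and tissue cells moved with the culture. All 15 tested neutrophil and granule markers, of 28 listed, were lower in the BMDM, where 20.6% of all genes tested were. Ltf, G0s2 and Ngp, with 0, 0 and 2 reads in the BMDM, entered the test through their BMDC reads. Such genes could only be called lower, so the count is in part set by the filter. The median was -5.22, or -4.67 with Ltf and G0s2 at their bound. The summed level of this list was 231.1 and 195.6 CPM in the BMDM and 3917 and 3786 CPM in the BMDC, where Mmp8, Mmp9 and Lcn2 made up most of it. Lcn2, an iron-siderophore binding protein of granules, had 16.5 and 6.51 CPM in the BMDM and 1146 and 479.7 CPM in the BMDC. Stfa3 had 0.35 and 0 CPM in the BMDM and 38.9 and 22.9 CPM in the BMDC. Wfdc21, another gene of the list, had 0.489 and 0.0651 CPM in the BMDM and 157 and 67.4 CPM in the BMDC. Genes made mainly in granulocyte precursors were near 0 in BMDC control 1 and higher in BMDC control 2: Mpo and Prtn3, listed in the BMDC table only, had 0 and 1 reads in BMDC control 1 and 23 and 57 in BMDC control 2, and Ngp had 0.812 and 27.3 CPM in the BMDC. The part of such cells in the differences of the BMDC, Mmp8 included, was not tested. After BMDM control 1 was left out, 7 of the 15 passed, and 8 after BMDM control 2 was.

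The monocyte gene Ly6c2 had 1.47 and 1.5 CPM in the BMDM and 574 and 327 CPM in the BMDC (log2 -8.24, SE 0.39, adjusted p = 1.6e-04); its near copies can share its reads. Of 8 tested monocyte markers, 4 were lower and 2 higher, and 1 of the 2 passed without BMDM control 1. Spn, a sialomucin, was one of the higher ones, at 119 and 115 CPM in the BMDM and 6.28 and 13.1 CPM in the BMDC. Of 6 tested erythroid and megakaryocyte markers, 3 were lower and 3 did not pass. Their median of -1.60 became 0.53 without BMDC control 2, with 2 higher and 2 lower, and without BMDM control 1 only 1 of the 3 lower genes passed. Among the 3 was Pf4, platelet factor 4, at 35.9 and 23 CPM in the BMDM and 778 and 1232 CPM in the BMDC. Of 12 fibroblast, stromal and endothelial markers, 9 were lower in the BMDM and the other 3 did not pass, and 4 of the 9 passed without BMDM control 1. Their summed level was 56.2 and 68.4 CPM in the BMDM, most of it Vwf, and 353.7 and 569.6 CPM in the BMDC, most of it Fn1 and Vwf, while Col1a1 reached only 2.87 and 3.03 CPM in the BMDC. The summed level of mast cell, basophil and eosinophil markers was 5.94 and 5.53 CPM in the BMDM and 96.9 and 186.6 CPM in the BMDC, where Kit made up most of it. Of 6 tested, 3 were lower and 1 higher in the BMDM, and 1 lower gene passed without BMDM control 1 or without BMDM control 2. Prg2, of eosinophil granules, had 1 read in BMDC control 1 and 189 in BMDC control 2. Among B cell and T cell markers, Cd79b was higher in the BMDM, at 9.72 and 9.3 CPM, against 0.541 and 1.56 CPM in the BMDC. Cd4 was higher as well, at 16 and 21.3 CPM in the BMDM and 1.35 and 4.83 CPM in the BMDC, and Thy1 was lower. None of the 5 tested plasmacytoid dendritic cell markers passed in edgeR's test, 1 had an unadjusted p under 0.05, and DESeq2 called 0.

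Genes of alveolar macrophages, a cell type that depends on GM-CSF in the lung, split both ways. In the BMDM, 6 of 15 tested were higher and 5 lower, beside 17.7% and 20.6% of all genes tested. The median of -0.33 became 0.77 without BMDC control 2. Of the 5 lower genes, 3 passed without BMDM control 1. Marco, Ctsk and Cd36 were higher in the BMDM. Chil3, Olr1 and Net1 were lower. Of 12 tested osteoclast genes, 4 were lower and 3 higher in the BMDM, beside 20.6% and 17.7% of all genes tested. Their median was -0.40, or -0.25 without BMDM control 1. Ctsk, the collagen-degrading cathepsin, had 389.7 and 384 CPM in the BMDM and 118 and 107 CPM in the BMDC. Tnfrsf11a, which encodes RANK, had 50.1 and 51.4 CPM in the BMDM and 6.06 and 9.87 CPM in the BMDC. Dcstamp, needed for cell fusion, was lower in the BMDM, at 0.28 and 0.0651 CPM, against 3.79 and 3.27 CPM in the BMDC.

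Of 13 tested MHC class II genes, which present antigen to helper T cells, 4 were lower and 1 higher in the BMDM, a share past the threshold near the 38.3% of all genes tested. H2-Ab1 had 48.9 and 42.7 CPM in the BMDM and 89.9 and 78.7 CPM in the BMDC (log2 -0.88, adjusted p = 0.0081). H2-Aa had 35.9 and 32.1 CPM in the BMDM and 49.5 and 62.8 CPM in the BMDC. Cd74, the invariant chain, had 208 and 182 CPM in the BMDM and 125 and 259.7 CPM in the BMDC, with the BMDC libraries on both sides, and did not pass. The median of -0.43 became 0.13 without BMDC control 2, and of the 5 genes past the threshold, 2 lower ones passed without BMDM control 1 or without BMDM control 2. Marchf1, a ligase that removes MHC class II from the surface, was lower in the BMDM at 31.5 and 32.2 CPM, against 81.9 and 122 CPM in the BMDC. Of 23 MHC class I and loading genes, 3 were higher and 2 lower, or 1 and 2 with the length trend removed, and 0 of the 3 passed without BMDM control 1. Of 20 costimulators and coinhibitors, 6 were lower and 4 higher, beside 20.6% and 17.7% of all genes tested. With the length trend removed, 6 were lower and 1 higher. Their median was -0.11, the same without BMDM control 1, and -0.16 without BMDM control 2. Cd86 had 6.29 and 5.33 CPM in the BMDM and 45.6 and 58.5 CPM in the BMDC (log2 -3.16, SE 0.21, adjusted p = 3.6e-04). Cd80 had 12.8 and 12.8 CPM in the BMDM and 34.5 and 29.6 CPM in the BMDC. Cd274, the inhibitory ligand PD-L1, had 92 and 84.7 CPM in the BMDM and 370.3 and 440.5 CPM in the BMDC (log2 -2.20). Nectin2 went the other way, at 55.8 and 39.9 CPM in the BMDM and 9.1 and 9.33 CPM in the BMDC.

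Interferon-stimulated genes leaned to the BMDM, with a median of 0.83. Of 54 tested, 25 were higher and 2 lower, beside 17.7% and 20.6% of all genes tested. Ifit3 had 312 and 145 CPM in the BMDM and 45.6 and 22.9 CPM in the BMDC. Ifit2 had 187 and 98.5 CPM in the BMDM and 43.9 and 36.6 CPM in the BMDC. Ifi44 had 19.4 and 7.35 CPM in the BMDM and 1.25 and 1.32 CPM in the BMDC; these are antiviral genes switched on by type I interferon, and Ifit3 has a near copy. In all 3, BMDM control 1 was well above BMDM control 2. Across the list the median gap between the BMDM libraries was 0.83 on the log2 scale, as large as the median difference between the cultures. Without BMDM control 1, 3 of the 25 higher genes passed, and 0 were called higher in a joint fit of all 8 libraries, where 545 of all genes were. Gbp7 was lower in the BMDM, at 11.3 and 6.83 CPM, against 47.1 and 39.5 CPM in the BMDC. Of 21 genes of Toll-like receptor signalling, 9 were higher and 1 lower, with a median of 0.21, or 0.01 with library totals. Of the 9, 3 passed without BMDM control 1 and 4 without BMDM control 2. Tlr1 had 266 and 201 CPM in the BMDM and 18.1 and 23.8 CPM in the BMDC (log2 3.47), while Tlr4, the endotoxin receptor, had 41.7 and 53.2 CPM in the BMDM and 116 and 184 CPM in the BMDC (log2 -1.66). Tlr3 and Tlr13 did not pass, at -0.05 and -0.01.

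Glycolysis and hypoxia response genes were more often lower than higher in the BMDM, with a median of -0.71. Of 30 tested, 16 were lower and 4 higher, beside 20.6% and 17.7% of all genes tested. Hif1a, the hypoxia-inducible factor, had 87 and 81.8 CPM in the BMDM and 239 and 286 CPM in the BMDC (log2 -1.64). Its known target Egln3, an oxygen sensor, had 6.71 and 7.81 CPM in the BMDM and 68.8 and 95.3 CPM in the BMDC. Bnip3, Vegfa and the glucose transporter Slc2a1, further targets, were lower too, at log2 differences of -3.17, -2.22 and -1.24. Among the 30, Slc2a3, Gpi1 and Pfkp did not pass. With BMDM control 1 left out, 12 of the 16 still passed. ATF4 targets and amino acid synthesis showed 13 of 23 lower and the other 10 not past the threshold, with a median of -0.92. Of the 13, 8 passed without BMDM control 1. Asns, the asparagine synthetase, had 9.58 and 9.95 CPM in the BMDM and 90.1 and 92.2 CPM in the BMDC (log2 -3.22). Phgdh, the entry to serine synthesis, had 2.94 and 2.86 CPM in the BMDM and 43.9 and 35.5 CPM in the BMDC. Trib3, an ATF4-induced pseudokinase, had 3.5 and 1.69 CPM in the BMDM and 31.8 and 82 CPM in the BMDC. Slc7a5, a transporter of large neutral amino acids, was lower at a log2 difference of -2.51.

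NRF2 targets, which defend against oxidants, were more often higher in the BMDM, with 13 of 25 higher and 3 lower and a median of 0.59, or 10 and 5 with the length trend removed. Srxn1, which restores peroxiredoxins, had 573 and 572 CPM in the BMDM and 142 and 172 CPM in the BMDC (log2 1.87). Me1, the malic enzyme that makes NADPH, had 19.3 and 19.7 CPM in the BMDM and 4.38 and 4.2 CPM in the BMDC. Slc7a11, the cystine transporter, and Gsr, the glutathione reductase, went the other way at -1.33 and -1.05. In the fit without BMDM control 1, 4 of the 13 higher genes passed, and 7 without BMDM control 2. Iron genes had 9 of 20 higher and 5 lower, or 7 and 2 with the length trend removed and 5 and 1 still past the threshold without BMDM control 1. Cp, ceruloplasmin, had 45 and 35.3 CPM in the BMDM and 5.79 and 5.37 CPM in the BMDC. Hfe had 60.3 and 61.9 CPM in the BMDM and 12 and 16.5 CPM in the BMDC, while the ferritin chain Fth1, at 0.31, did not pass. Of 54 lysosomal genes, 14 were higher and 8 lower, with a median of 0.24, but 8 were higher and 15 lower with library totals in place of TMM scaling. Among all genes tested, 17.7% were higher and 20.6% lower, or 11.9% and 26.7% with library totals. Of the 14 higher and 8 lower, 5 and 0 passed without BMDM control 1, and 6 and 4 without BMDM control 2. Ctsf, Glb1 and Gusb were higher, with log2 differences of 2.99, 1.03 and 1.06. Heat shock genes had 8 of 19 higher and 3 lower, such as Bag3 at 0.95, and 1 of these 8 passed without BMDM control 1 and 4 without BMDM control 2. Few cell cycle genes passed: of 42 tested, 5 were higher and 3 lower, or 3 and 5 with library totals. Mki67 had 34.9 and 29 CPM in the BMDM and 98.4 and 66 CPM in the BMDC, and with BMDM control 1 left out it was the only one of the 8 to pass.

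Transporters and channels split both ways, while purinergic genes were more often lower than higher in the BMDM. Over all genes tested, 17.7% were higher and 20.6% lower, and the share of channel genes past the threshold was near the 38.3% of all genes. Of 48 tested solute carriers, 12 were higher and 13 lower, with a median of -0.10 that was 0.14 without BMDC control 1. Of these, 5 of the 12 and 7 of the 13 passed without BMDM control 1. Apart from Slc13a3, the inositol transporter Slc5a3 was higher in the BMDM, at 29.2 and 52.6 CPM, against 6.06 and 4.59 CPM in the BMDC, and the amino acid transporter Slc7a8 and the monocarboxylate transporter Slc16a1 were lower at -2.02 and -1.84. Of 36 tested ion channel genes, 8 were higher and 7 lower, or 9 and 3 with the length trend removed, and 5 of the 8 and 1 of the 7 passed without BMDM control 1. Kcnn4, a calcium-activated potassium channel, had 108 and 94.3 CPM in the BMDM and 14.4 and 17.2 CPM in the BMDC. Trpv4 had 13.4 and 13.8 CPM in the BMDM and 1.62 and 2.05 CPM in the BMDC. Of 20 purinergic genes, 8 were lower and 3 higher, with a median of -1.06, or -0.47 without BMDC control 2. Cd38, which breaks down NAD, had 9.58 and 6.18 CPM in the BMDM and 263 and 194 CPM in the BMDC (log2 -4.86), and Nt5e, the ecto-enzyme CD73 that makes adenosine, had 3 reads over the BMDM and 578 over the BMDC. P2ry6, a receptor for UDP, was higher in the BMDM at 93.5 and 105 CPM, against 28.3 and 37.6 CPM in the BMDC. Cd44, the hyaluronan receptor of the adhesion list, had 141 and 116 CPM in the BMDM and 422 and 446 CPM in the BMDC. Itga9 had 20.3 and 20.5 CPM in the BMDM and 0.596 and 2.34 CPM in the BMDC.

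Genes listed in only one of the tables carry no value in the other and entered no test. The BMDM table alone lists 622 genes, of which 250 had no read in either control and 7 had at least 10 reads in a control. The highest was Cd209f, a C-type lectin of macrophages, with 83 and 50 reads (5.2 and 3.15 CPM of the library total). The BMDC table alone lists 1066 genes, of which 370 had no read in either control and 71 had at least 10 reads in a control. The highest were Cstdc4, a gene of the stefin cluster, with 115 and 394 reads, Prg2, Cdh1, the E-cadherin gene, with 29 and 150 reads, Ccl17, a chemokine of dendritic cells, with 105 and 49 reads, and Ccdc88c, with 59 and 72 reads. The reads of Ccl17 amount to 6.22 and 2.52 CPM of the library total.

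The knockout libraries of both cultures, which the comparison had not used, gave the same measure a second time. Of the 1995 genes higher in control BMDM, 1981 were tested there and 1662 (83.9%) had a difference above 0, where 44% of all genes tested did. Of the 2316 lower genes, 2278 were tested and 2100 (92.2%) had a difference below 0, against 56% of all genes. Among genes that differed by a log2 of at least 3 in the controls, 168 of 172 higher and 251 of 251 lower genes kept their direction. Few passed on their own: 87 of the higher and 188 of the lower genes, where 0.775% of all genes tested were called higher and 1.70% lower. Of the 278 genes called in the knockouts and tested in the controls, 275 had been called the same way in the controls and 0 the opposite way. BMDC knockout 2 stood apart from BMDC knockout 1: without it 99.2% of the higher and 99.3% of the lower genes kept their direction, and without BMDC knockout 1 these shares were 64.2% and 51.7%. Slc13a3 had 10.02 as its difference in the knockouts, Mmp8 -5.11, Adgre1 1.41 and Pltp 5.17, beside 11.82, -5.22, 1.67 and 6.24 in the controls. Groups of genes did not all repeat. In the knockouts their members are counted by sign, whether or not they passed. All 15 neutrophil and granule markers were below 0 again, where 56% of all genes tested were, with a median of -5.11. The matrix list had a median of -2.52. Dendritic cell markers, with a median of -0.43 in the controls, had 13 of 16 below 0 and a median of -1.29 in the knockouts. That median was -1.28 without BMDC knockout 2 and -1.62 without BMDC knockout 1. MHC class II genes, also with a median of -0.43 in the controls, had 12 of 13 below 0 and a median of -1.38. Without BMDC knockout 2, 9 of 13 were below 0, with a median of -0.99. The macrophage markers had 16 of 23 above 0, with a median of 0.48, or 0.97 without BMDC knockout 2. Interferon-stimulated genes, with a median of 0.83 in the controls, had 3 of 53 above 0 and a median of -1.20 in the knockouts. Without BMDC knockout 2, 51 of 53 were above 0, with a median of 1.92. Ifit3 stood at 170.2 and 267.6 CPM in knockout BMDM, against 6.20 and 1303.5 CPM in knockout BMDC. MHC class I genes followed the same library, with 2 of 23 above 0 and a median of -1.02 with it and 20 of 23 and a median of 0.51 without it. The direction of interferon-stimulated and MHC class I genes in the knockouts therefore rests on BMDC knockout 2, and its cause was not tested.

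**Figure D5:**
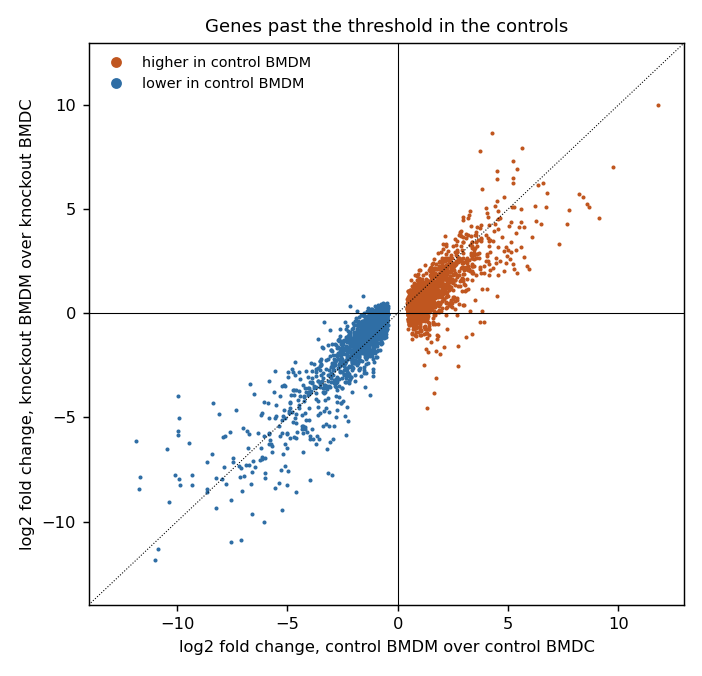
Log2 fold change of BMDM over BMDC in the knockout libraries (vertical) against that in the control libraries (horizontal), 1 point per gene past the threshold in the controls; the dotted line marks equal values. Genes to the upper left or lower right of the origin changed direction.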

How the data were processed

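The libraries were made with TruSeq Stranded mRNA chemistry, per the labels' protocols. The authors trimmed reads with cutadapt and counted them with HTSeq, per the labels' protocols, and deposited raw read counts per gene. The aligner, the tool versions and the strand setting are not given in the sources used here, so reads of overlapping antisense genes are uncertain. The authors also deposited FPKM values, which were used only in alternatives, on the log2 scale with a pseudocount of 1 or 0.1. GRCm38 and GRCm39 are both named in the submitters' processing notes, and 2.16% of 13664 genes start where GENCODE M21 places them, so gene coordinates were not used; promoter windows are RefSeq's on GRCm38.p6.

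The BMDM and BMDC counts were joined by gene identifier. Genes were kept by edgeR's filterByExpr (minimum count 10), scaled by TMM and tested with edgeR 4.0.16 quasi-likelihood tests in R 4.3.3 on the 4 control libraries, without a block, at an adjusted p under 0.05. The common biological coefficient of variation was 0.1895 in the controls and 0.3747 in the knockouts. Library totals allow 3 reads, or 0.154 to 0.189 CPM, as the limit of a count of 0. Intervals at the 95% level and these limits cover counting error only. The p-values measure the spread between 2 samples a group. Scripts were tested on simulated counts. Alternatives used limma 3.58.1, DESeq2 1.42.0, other scalings and filters, a length trend removed by loess, a replicate block, a joint fit of 8 libraries, and fits that left out each library in turn. The latter hold a single library in the reduced group, so their spread comes from the other group alone.

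The members and the 48 gene lists (882 distinct genes tested) were chosen with earlier results of these data known. Named genes are the markers, the 15 largest changes in each direction among called, non-overlapping genes of at least 5 CPM, up to 6 called members of each list with the smallest p and 3 uncalled with the largest, Trpv2, Lyz2, and the 5 highest genes listed in one table only. Abca1, C1qb, C1qc, Ccr7, Cd209a, Csf1r, Csf2ra, Flt3, G0s2, Il1b, Itgax, Ltf, Mpo, Ngp, Prtn3, Spi1 and Xcr1 were named after their values were seen.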

Additional observations from a re-analysis of the deposited data

Results flagged for a closer look

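Trpv2 differed in direction between the genotypes. In the knockout libraries its level was 26.2 and 28.9 CPM in the BMDM and 35.4 and 56.0 CPM in the BMDC, a log2 difference of -0.73. Whether this difference passed the threshold in the knockouts is not given here. In the control libraries it was 277 and 278 CPM in the BMDM and 181 and 241 CPM in the BMDC, a difference of 0.39 that did not pass the threshold. In neither genotype did the cultures overlap, but in the controls this held for 75.0% of all genes tested. The difference between the genotypes was not tested.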

How the results depend on the processing

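The number of genes past the threshold depended on the threshold and on the libraries in the fit. With a fold change of at least 2 asked for, 1024 genes were higher and 1314 lower in the BMDM, and a test against that fold change (glmTreat) gave 340 and 501. A joint fit of 8 libraries gave 545 and 593. Leaving out each control library in turn gave 504 to 2335 higher and 725 to 2660 lower genes. The other alternatives stayed within 1.5 times of 1995 and 2316. Replicate numbers are shared between the cultures, but nothing in the labels says that they pair the mice. Over genes, the log2 gap between control 1 and 2 of the BMDM correlated at 0.128 with that of the BMDC. With the replicate block, 2282 genes were higher and 2557 lower. In the knockout libraries the block gave 435 higher and 548 lower genes called the same way, and leaving out each library in turn gave 69 to 1670 and 147 to 1909, with 51.7% to 99.3% of lower genes in the same direction. Of the 201 tested genes named here, 1 turned direction under an alternative: Mrc1, at 1.71 without BMDC control 2 and -0.82 without BMDC control 1, where it passed in both. Of the 175 named genes that passed, 28 no longer passed in the joint fit of 8 libraries and 32 in the glmTreat test. The causes were not tested. Depth limits genes of few reads, whose fold changes are given as bounds or with counting intervals.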
